A study of Drosophila melanogaster with 11 samples.

Results

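Complex I (NADH:ubiquinone oxidoreductase) is the entry point of the mitochondrial respiratory chain, and 34 of the 15603 genes in the deposited tables encode its nuclear subunits or close copies of them. They were taken by symbol from a fixed list, whatever their values, and are called the complex I genes below. ND75, the subunit that the study knocked down, is described apart. The study asked how fly tissues respond to mitochondrial stress and whether the phosphatase PGAM5 is needed, and it sequenced mRNA in 11 libraries of 15 animals each, 3 of them from adult thorax and 8 from fat body of larvae or adults.

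Complex I takes electrons from NADH and passes them through FMN and a chain of iron-sulfur clusters to ubiquinone, and it pumps protons across the inner membrane as it does so. Core subunits carry the catalysis, in an N module that oxidizes NADH, a Q module that reduces ubiquinone and a membrane arm that pumps protons, and many supernumerary subunits surround them. The core subunits of the membrane arm are encoded in mitochondrial DNA, and flight muscle is among the tissues richest in the complex.

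The thorax samples came from adult females, as thoracic muscle freed of head, abdomen, wings, legs and intestine. The ND75 RNAi flies carried tubulinGeneSwitch with an ND75 RNAi transgene, the dOTC flies carried tubulinGeneSwitch with UAS-dOTC, a misfolding ornithine transcarbamylase, and the control flies came from tubulinGeneSwitch crossed to w1118. These driver names are those of the sample labels, whereas the study's text names the daughterless GeneSwitch driver for this experiment. All 3 groups, the control included, received RU486 (200 µM), the inducer of GeneSwitch, for 24 hr at day 7. Since the control is a different cross, genetic background and transgene cannot be told apart.

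Every fat body sample carried DaGeneSwitch, which is driven by the ubiquitous daughterless promoter, and UAS-dOTC. They were PGAM5 null or wild type at PGAM5, were raised as larvae with RU486 or with none, and were taken as L3 larvae or as adults of 7 days that had received RU486 only as larvae. RU486 was never given in fat body without UAS-dOTC, so dOTC and the drug itself cannot be told apart. Each condition is 1 library, so no ratio has a replicate check, no p-value is given, and every ratio compares 2 libraries. Values are FPKM, fragments per length of transcript scaled to the mapped fragments of the library. Intervals in parentheses after a ratio are exact 95% intervals from the fragments recovered behind each value, and they cover counting error only.

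The libraries held an estimated 3000000 fragments (ND75 RNAi thorax) to 8990000 fragments (larval wild type with RU486). Yp1, a yolk protein gene of adult female fat body, was at 25125 to 41899 FPKM in the adult fat body libraries and at most at 0.243 FPKM in the larval ones. In the thorax libraries Yp1 was at 6060 to 7534 FPKM. Lsp2, a larval serum protein gene, was at 37072 to 47148 FPKM in the larval libraries and at 6.35 to 27.1 FPKM in the adult ones. The 6 larval fat body markers summed to 131857 to 192531 FPKM in the larval libraries and to 9.08 to 97.6 FPKM in the adult ones. These fat body values go with the sheet names and labels, although a header line of the adult sheet says larval. In larval wild type with RU486 only 5 of the 6 larval markers were above 0, whereas the lowest was at 10214 FPKM without RU486. Pgam5 was at 0.289 and 0.577 FPKM in PGAM5 null larvae with and without RU486, against 13.3 and 16.8 FPKM in wild-type larvae with and without it. In adults it was at 0 and 0.841 FPKM in PGAM5 null flies with and without RU486, against 10.1 and 11.8 FPKM in wild-type flies.

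The complex I genes were among the most abundant transcripts of the thorax. They took 3.96% of the FPKM sum in the ND75 RNAi library and 3.33% in the dOTC library, against 3.65% in the control. In fat body the share was 0.401% in larval wild type with RU486 against 0.239% without, and 0.320% in larval PGAM5 null with RU486 against 0.206% without. Adult fat body lay between, at 0.628% in wild type with RU486 against 0.572% without, and at 0.530% in PGAM5 null with RU486 against 0.547% without. The 3 tables were normalized separately, so levels set across tissues are a description.

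Of the 34 genes, 30 averaged 10 FPKM or more over the 11 libraries. Their median was 766 FPKM in the ND75 RNAi thorax and 627 FPKM in the dOTC thorax, against 688 FPKM in the control. In larval fat body it was 87.3 FPKM in wild type with RU486 against 60.5 FPKM without, and 70.0 FPKM in PGAM5 null with RU486 against 64.8 FPKM without. In adult fat body all 4 medians lay between 133 and 151 FPKM. CG40002 (ND-AGGG, NDUFB2) was listed at 0 in all 11 libraries, as were the 7 complex I genes of mitochondrial DNA, so nothing is said of their levels.

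The order of abundance differed between the tissues. In the control thorax the most abundant genes included CG9140 (ND-51, the NADH- and FMN-binding core subunit NDUFV1 of mammals) at 1347 FPKM, CG10320 (ND-B12, NDUFB3, a supernumerary subunit of the membrane arm) at 1335 FPKM and CG3214 (ND-B17.2, NDUFA12) at 1086 FPKM. CG9140 and CG10320 were level there and apart in fat body. In larval wild type without RU486, CG10320 led at 192 FPKM, followed by CG18624 (ND-MNLL, NDUFB1) at 158 FPKM, mtacp1 (ND-ACP, the mitochondrial acyl carrier protein) at 129 FPKM and NP15.6 (NDUFB11) at 129 FPKM, whereas CG9140 was at 47.2 FPKM. In adult wild type without RU486 the leaders were CG10320 at 338 FPKM, CG18624 at 276 FPKM, mtacp1 at 264 FPKM and Pdsw (ND-PDSW, NDUFB10) at 223 FPKM. The lowest of the measured genes in the control thorax were CG15434 (ND-B8, NDUFA2) at 126 FPKM, CG3446 (ND-B16.6, NDUFA13) at 429 FPKM, l(2)35Di (ND-B17, NDUFB6) at 436 FPKM and CG5548 (ND-B18, NDUFB7) at 449 FPKM. In larval wild type without RU486 the lowest of these 30 genes were CG15434 at 10.1 FPKM, CG3192 (ND-ASHI, NDUFB8) at 37.3 FPKM, CG5703 (ND-24, NDUFV2, an iron-sulfur subunit of the N module) at 40.5 FPKM and ND75 at 42.1 FPKM. In adult wild type without RU486 they were CG15434, listed at 0, CG5703 at 74.0 FPKM, CG12203 (ND-18, NDUFS4) at 74.3 FPKM and l(2)35Di at 87.8 FPKM.

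Core and supernumerary genes changed places with the tissue. The median of the 7 core genes was 1.28 times that of the supernumerary genes averaging 10 FPKM or more in the ND75 RNAi thorax and 1.34 times in the dOTC thorax, against 1.27 times in the control. The same ratio was 0.552 to 0.686 over the 4 larval libraries and 0.775 to 0.865 over the 4 adult fat body libraries. Over the 30 genes the rank correlation of levels (Spearman) was 0.27 between control thorax and larval wild type without RU486, and 0.57 between control thorax and adult wild type without RU486. Between larval and adult wild type without RU486 it was 0.82. These correlations are across genes of libraries that also differ in depth, and they are given as a description.

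**Figure D1:**
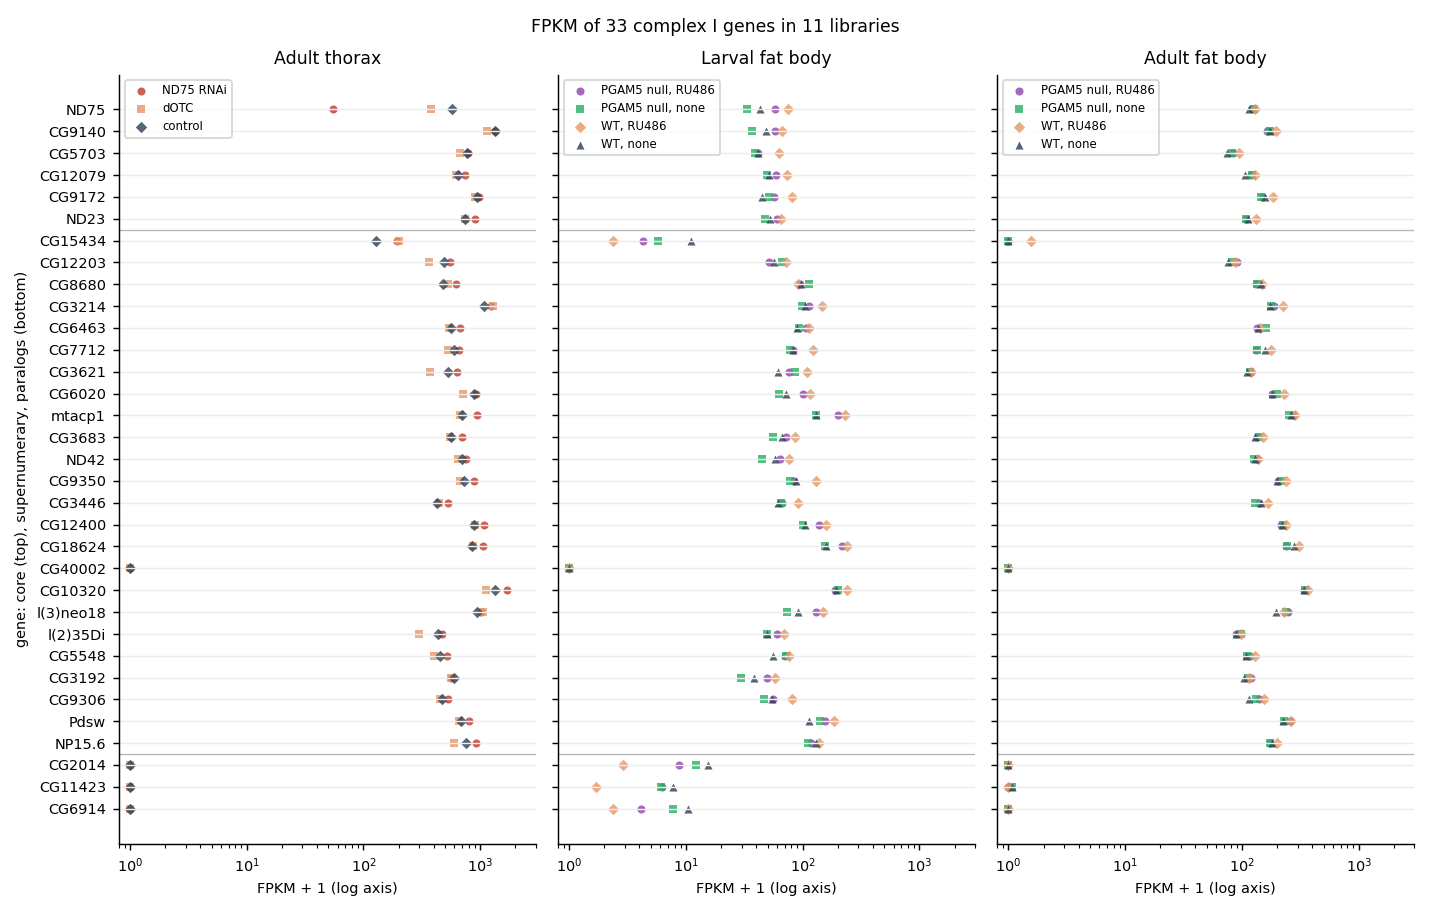
FPKM plus 1 (log axis) of 33 of the complex I genes, with 1 symbol per library, in adult thorax, larval fat body and adult fat body; core genes stand above the upper line and the 3 paralogs below the lower one. ND75 stands apart in the ND75 RNAi thorax at 53.8 FPKM, and the paralogs are at 0 in every thorax library.

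With ND75 RNAi the targeted transcript was far lower and most of its partners were slightly higher than in the control. ND75 (ND-75, NDUFS1), the largest core subunit, which carries iron-sulfur clusters of the N module, was at 53.8 FPKM with ND75 RNAi, against 572 FPKM in the control (ratio 0.0940, 0.0847 to 0.104). Among the 30 genes with a control of 10 FPKM or more, 26 had a ratio above 1, against 28.5% of the 4308 genes at that level. The median log2 ratio of the 30 genes (with 1 FPKM added to each value) was 0.21, against -0.17 for the 9329 genes that reached 1 FPKM in at least 1 of both libraries. The complex I genes thus stood 0.38 above the median gene on the log2 scale, or 0.18 above it with no filter on low genes.

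The differences in single genes were small. CG15434 was at 191 FPKM with ND75 RNAi, against 126 FPKM in the control (ratio 1.51, 1.22 to 1.85), the only gene of the 30 to reach 1.5-fold, where 2.83% of all genes did. ND75 itself was the only gene lower by 1.5-fold, where 18.5% of all genes were, and it was also the only one past the 2-fold threshold of the study, where 8.64% were. The next highest ratios were those of mtacp1 at 1.34, CG8680 (ND-13A, NDUFS6) at 1.30 and CG10320 at 1.27. CG10320 was at 1689.8 FPKM with ND75 RNAi, against 1335 FPKM in the control. At the other end, CG3192 had a ratio of 0.956 (0.888 to 1.03) and CG9140 one of 0.995 (0.964 to 1.03), so neither differed from the control beyond counting error.

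Core subunits other than ND75 lay closer to the control than supernumerary ones did. CG5703 had a ratio of 1.02, CG9172 (ND-20, NDUFS7, which holds the terminal cluster before ubiquinone) 1.04, CG12079 (ND-30, NDUFS3) 1.15 and ND23 (ND-23, NDUFS8) 1.21. The 7 core genes, ND75 included, had a median log2 ratio of 0.03, and the 23 supernumerary genes one of 0.26, with 22 of these above 0. The difference between both medians was not tested. By module the medians were 0.17 for the N module (7 genes), 0.16 for the Q module (8 genes) and 0.25 for the membrane arm (14 genes). Muscle transcripts were also higher in this pair of libraries: 13 of 16 muscle markers were above 0, with a summed level of 33304 FPKM against 21255 FPKM in the control, none of them at 0 in either library. Gut enzyme markers summed to 109 FPKM with ND75 RNAi against 1881 FPKM in the control, and eggshell markers to 28.8 FPKM against 268 FPKM. Adult fat body markers summed to 14313 FPKM with ND75 RNAi against 17786 FPKM in the control, all 6 being lower. Their part in the result was not tested, and in bulk tissue fewer cells of a type and less RNA per cell cannot be told apart.

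With dOTC the complex I genes lay slightly below the control. The median log2 ratio was -0.07 over 30 genes, against 0.06 for the 9436 genes at 1 FPKM or more, and 21 of the 30 genes had a ratio below 1, against 46.7% of all genes at 10 FPKM or more. ND75 was at 375 FPKM with dOTC, against 572 FPKM in the control (ratio 0.656, 0.632 to 0.681). It was the only gene lower by 1.5-fold, where 11.7% of all genes were, although no RNAi was directed at it in these flies. No complex I gene was lower by 2-fold, where 6.66% of all genes were.

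Other low ratios came from both matrix modules and the membrane arm. l(2)35Di was at 297 FPKM with dOTC, against 436 FPKM in the control (ratio 0.681, 0.628 to 0.736). CG3621 (ND-B14.5A, NDUFA7) was at 367 FPKM, against 527 FPKM in the control (ratio 0.698, 0.641 to 0.758). CG12203 was at 364 FPKM, against 486 FPKM in the control (ratio 0.75, 0.694 to 0.810). None of these intervals reached 1. Further core genes gave ratios of 0.851 for CG9140, 0.873 for CG5703 and 0.953 for CG12079, and others 0.967 for CG9172 and 1.01 for ND23. After scaling to the median gene 3 genes in place of 1 were lower by 1.5-fold.

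CG15434 was again the highest, at 202 FPKM with dOTC against 126 FPKM in the control (ratio 1.60, 1.34 to 1.92), and again the only gene past 1.5-fold, where 11.1% of all genes were. CG3214 followed at 1.18 (1.12 to 1.25), l(3)neo18 (ND-SGDH, NDUFB5) at 1.13 (1.07 to 1.18) and CG8680 at 1.12 (1.03 to 1.21). Both thorax comparisons rest on the same control library, and both CG15434 ratios share its value of 126 FPKM. Muscle markers were also lower here in 11 of 16 cases, 4 of them by 1.5-fold, with a summed level of 18361 FPKM with dOTC against 21255 FPKM in the control. Gut enzyme markers summed to 260.0 FPKM against 1881 FPKM in the control. Adult fat body markers summed to 16530 FPKM with dOTC against 17786 FPKM in the control, with 4 of 6 lower. The part of these tissues in the result was not tested.

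**Figure D2:**
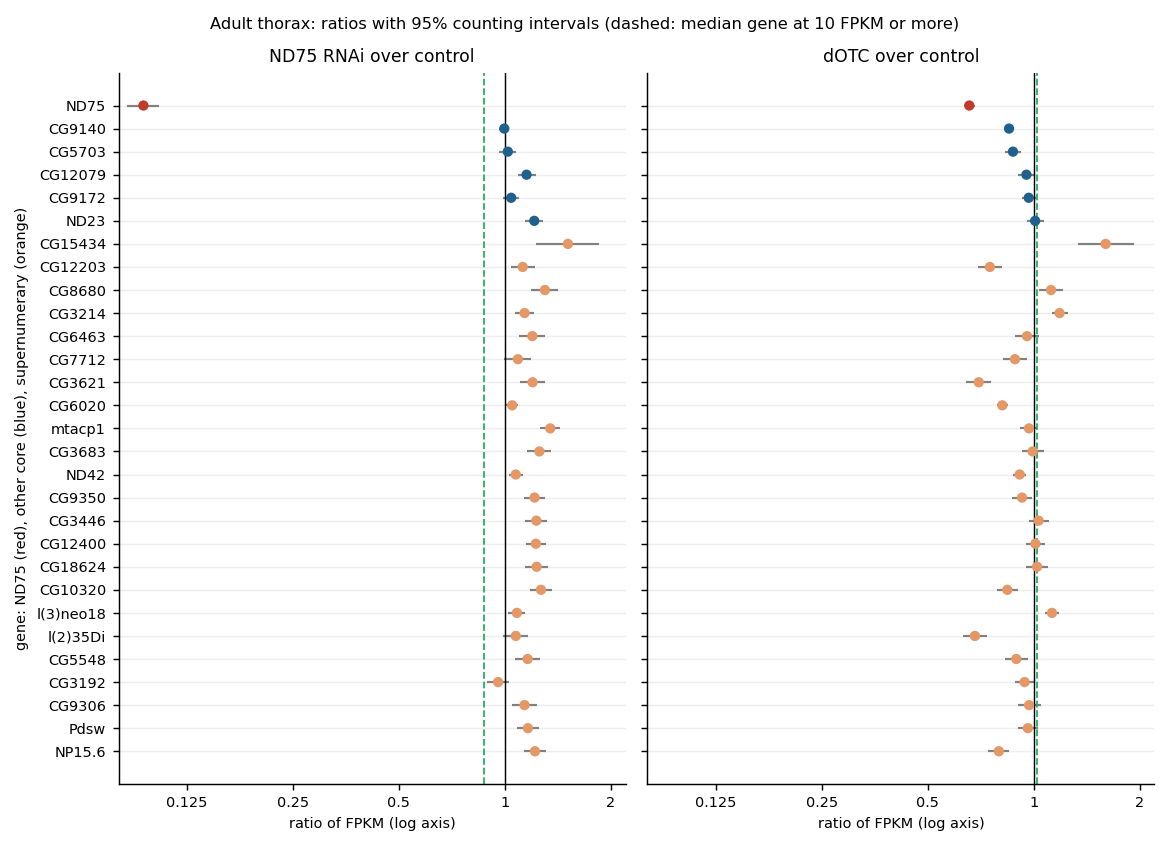
Ratio of FPKM over the control thorax (log axis) for 29 of the measured complex I genes with ND75 RNAi (left) and with dOTC (right); bars are 95% counting intervals and the dashed line is the median ratio of all genes at 10 FPKM or more, 0.871 and 1.02. With ND75 RNAi 26 genes lie right of 1, and with dOTC 21 lie left of it.

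In larval fat body of wild type, most complex I genes were higher with RU486 while the median gene was lower. Of the 31 genes at 10 FPKM or more without RU486, 28 had a ratio above 1, against 23.4% of the 5225 genes at that level. The median log2 ratio was 0.50 over 33 genes, against -0.50 for all genes. A ratio of 1.5 or more was reached by 13 of 31 genes, where 7.27% of all genes reached it, and none came to the 3-fold threshold of the study, which 0.861% of all genes passed. A shift of -0.20 log2 units of the median gene at 10 FPKM or more in both libraries bears on every ratio of this pair, and scaling it away raised the count of genes past 1.5-fold to 22.

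The highest ratios came from all parts of the complex. CG9172 was at 80.5 FPKM with RU486, against 44.1 FPKM without (ratio 1.82, 1.54 to 2.15). mtacp1 was at 231 FPKM with RU486, against 129 FPKM without (ratio 1.79, 1.61 to 2.01). CG3621 was at 109 FPKM with RU486, against 60.8 FPKM without (ratio 1.79, 1.5 to 2.14). None of these intervals reached 1. ND75 was at 73.8 FPKM with RU486, against 42.1 FPKM without (ratio 1.75, 1.60 to 1.93). Every core gene was higher with RU486: the ratio was 1.52 for CG5703, 1.41 for CG12079, 1.39 for CG9140 and 1.25 for ND23. The modules were alike, with median log2 ratios of 0.47 for the N module, 0.62 for the Q module and 0.56 for the membrane arm, in which all 14 measured genes were above 0.

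CG8680 and NP15.6 were near 1 on the unscaled values. CG8680 was at 90.9 FPKM with RU486, against 96.0 FPKM without (ratio 0.947, 0.806 to 1.11), and NP15.6 was at 136 FPKM, against 129 FPKM (ratio 1.05, 0.922 to 1.2). Both intervals held 1 without scaling, while the median ratio of all genes at 10 FPKM or more was 0.707. The only genes lower by 1.5-fold, where 45.5% of all genes were, were CG2014 and CG15434, which are described with the paralogs. Salivary glue markers summed to 59440.3 FPKM with RU486 against 135167 FPKM without, all 6 being lower, and testis markers to 82.3 FPKM against 617 FPKM. All 11 muscle markers measured were lower, with a summed level of 462 FPKM against 839.9 FPKM, and the flight muscle actin gene Act88F was at 0 in both libraries. The part of other tissues in the result was not tested.

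In PGAM5 null larvae most complex I genes were again higher with RU486 while the median gene was lower. Of 30 genes, 24 had a ratio above 1, against 28.0% of the 4828 genes at 10 FPKM or more. Their median log2 ratio was 0.19 over 33 genes, against -0.26 for all genes. The median was 0.46 when the 10 most abundant genes were left out of the scaling. A ratio of 1.5 or more was reached by 6 genes, where 8.72% of all genes reached it (10 after scaling to the median gene, a shift of -0.21), and no gene was lower by 1.5-fold, where 34.9% were. l(3)neo18 was at 129.8 FPKM with RU486, against 72.6 FPKM without (ratio 1.79, 1.51 to 2.11). ND75 was at 56.9 FPKM with RU486, against 32.6 FPKM without (ratio 1.75, 1.54 to 1.98). CG3192 followed at 1.70 (1.30 to 2.24) and CG6020 (ND-39, NDUFA9, at the joint of Q module and membrane arm) at 1.60 (1.41 to 1.82).

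Among the core genes the ratio was 1.58 for CG9140, 1.27 for ND23, 1.21 for CG12079, 1.11 for CG9172 and 1.05 for CG5703. CG9172 and CG5703, at 1.82 and 1.52 in wild type, were thus near 1 in the null. The lowest ratios besides that of CG2014 were those of CG12203 at 0.775 (0.614 to 0.975), CG8680 at 0.834 (0.682 to 1.01) and CG3621 at 0.884 (0.711 to 1.09). Muscle markers went the other way from wild type: 11 of the 12 measured were above 0, with a summed level of 1003 FPKM with RU486 against 478 FPKM without. Gut enzyme markers summed to 878 FPKM with RU486 against 9568 FPKM without, and glue markers to 38057 FPKM against 168872 FPKM. Their part in the result was not tested.

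CG2014, CG11423 and CG6914 are close copies of subunit genes and behaved unlike the rest. CG2014 (ND-20L) is a paralog of CG9172, CG11423 (ND-51L1) of CG9140, and CG6914 (ND-B14.5AL) of CG3621. All 3 were listed at 0 in every thorax library, where their widely expressed copies were at 367 to 1347 FPKM, and at no more than 0.0780 FPKM in adult fat body. In larval fat body CG2014 was at 7.74 FPKM in PGAM5 null with RU486 against 11.1 FPKM without, and at 1.89 FPKM in wild type with RU486 against 14.5 FPKM without. CG11423 was at 5.21 FPKM in PGAM5 null with RU486 against 5.09 FPKM without, and at 0.688 FPKM in wild type with RU486 against 6.70 FPKM without. CG6914 was at 3.13 FPKM in PGAM5 null with RU486 against 6.78 FPKM without, and at 1.36 FPKM in wild type with RU486 against 9.48 FPKM without. The larval wild-type library with RU486 was the lowest of the 4 for each paralog.

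In wild-type larvae the ratio of RU486 over none was 0.131 (0.0552 to 0.262) for CG2014, 0.103 (0.0505 to 0.187) for CG11423 and 0.144 (0.0545 to 0.334) for CG6914. In PGAM5 null larvae it was 0.695 (0.378 to 1.31) for CG2014, 1.02 (0.665 to 1.55) for CG11423 and 0.462 (0.167 to 1.11) for CG6914, and each of these intervals held 1. Testis markers, which are genes of sperm and their mitochondria such as Mst87F, dj and fzo, gave ratios of 0.105 to 0.173 in wild type and 0.445 to 1.31 in PGAM5 null. The summed level of the 3 paralogs was 4.71% of the summed testis markers in PGAM5 null with RU486 and 4.67% without, and 4.79% in wild type with RU486 and 4.96% without. This share of the sum was near constant over the 4 libraries while the testis sum itself ran from 82.3 to 617 FPKM. Single paralogs did not all keep to it. In PGAM5 null the testis sum was 341 FPKM with RU486 against 492 FPKM without. CG2014 was at 7.74 against 11.1 FPKM there, CG11423 at 5.21 against 5.09 FPKM and CG6914 at 3.13 against 6.78 FPKM. The testis markers stood at most at 1.27 FPKM in any thorax or adult fat body library. The study's text says that its later experiments used female flies, and the sources used here give no sex for the larvae of these libraries in particular. The part of testis RNA in these values was not tested.

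CG15434 stood between both kinds of gene. It was at 191, 202 and 126 FPKM in the ND75 RNAi, dOTC and control thorax, but at 0 in 3 of the 4 adult fat body libraries and at 0.576 FPKM in the fourth, wild type with RU486. In larvae it was at 3.26 FPKM in PGAM5 null with RU486 against 4.81 FPKM without, and at 1.40 FPKM in wild type with RU486 against 10.1 FPKM without (ratio 0.139, 0.0229 to 0.416). Its level as a share of the testis markers was 0.956% in PGAM5 null with RU486 and 0.977% without, and 1.70% in wild type with RU486 and 1.63% without. CG6485 (ND-24L) and CG8102 (ND-51L2), further copies of core subunit genes outside the list that were chosen after their values were seen, had wild-type ratios of 0.0893 for CG6485 and 0.0977 for CG8102. In PGAM5 null larvae the ratios were 0.296 (0.127 to 0.611) for CG6485, an interval wholly below 1, and 0.662 (0.351 to 1.26) for CG8102.

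**Figure D3:**
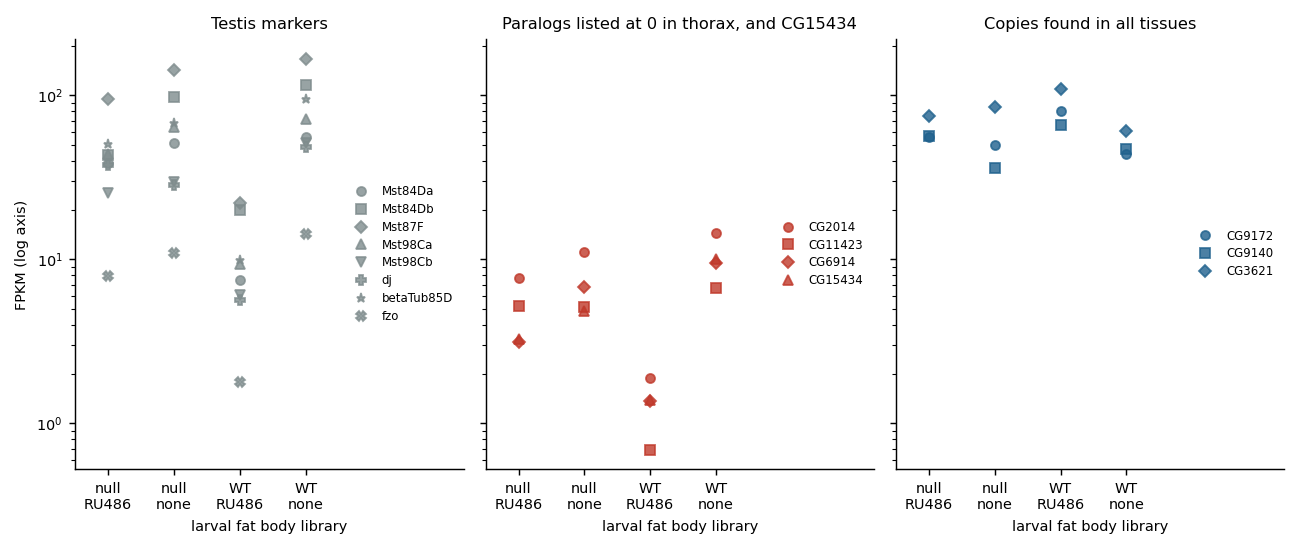
FPKM (log axis) in the 4 larval fat body libraries of 8 testis markers (left), of the 3 paralogs and CG15434 (middle) and of the widely expressed copies of the paralogs (right). In the library of wild type with RU486 the left and middle genes are at their lowest, while CG9172, CG9140 and CG3621 are at their highest there.

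Adult wild-type flies that had received RU486 as larvae had slightly higher levels of every measured complex I gene in fat body. All 29 genes at 10 FPKM or more had a ratio above 1, against 41.1% of the 5015 genes at that level. The counting intervals of 16 of the 29 lay wholly above 1, and those of the others held 1. No share of all genes under this rule is given, so the count is not a trait of the complex I genes. The ratios ran from 1.04 to 1.34, and the median log2 ratio was 0.17, against -0.07 for all genes. No gene was past 1.5-fold in either direction, where 2.21% of all genes were higher and 14.3% lower. CG9306 (ND-B22, NDUFB9) was at 154 FPKM after RU486, against 114.8 FPKM without (ratio 1.34, 1.18 to 1.52). CG3214 was at 225 FPKM after RU486, against 174 FPKM without (ratio 1.29, 1.15 to 1.45). These were the highest, and their intervals lay above 1.

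CG5703 and CG6020 followed with ratios of 1.27 (1.12 to 1.45) and 1.26 (1.18 to 1.34). Among the other core genes the ratio was 1.22 for CG12079, 1.17 for ND23, 1.17 for CG9172, 1.13 for CG9140 and 1.11 for ND75. CG8680 and CG6463 (ND-13B, NDUFA5) both had 1.04, and ND42 (ND-42, NDUFA10) had 1.05, with intervals that held 1. The library without RU486 held gut enzyme transcripts: all 12 gut markers were lower after RU486, with a summed level of 54.4 FPKM against 6969 FPKM, and alphaTry was at 11.8 FPKM against 1674 FPKM. Muscle markers were level, with 6 of 12 above 0 and sums of 996 FPKM after RU486 against 943 FPKM without. The part of gut RNA in the result was not tested.

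In PGAM5 null adults the complex I genes were level. The median log2 ratio of RU486 over none was 0.00, against 0.01 for all genes, and -0.01 when the 10 most abundant genes were left out of the scaling, and 15 of 29 genes had a ratio above 1, against 40.5% of the 4506 genes at 10 FPKM or more. No gene was past 1.5-fold, where 2.86% of all genes were higher and 7.88% lower. Pdsw was at 258 FPKM after RU486, against 229 FPKM without (ratio 1.13, 1.02 to 1.25). CG12203 at 1.10, CG3446 at 1.09 and mtacp1 at 1.09 had intervals that held 1. The lowest were CG6463 at 0.851 (0.736 to 0.982), CG6020 at 0.895 (0.835 to 0.958), l(2)35Di at 0.903 (0.782 to 1.04) and CG9140 at 0.938 (0.873 to 1.01). Among other core genes ND75 was at 0.962, CG5703 at 1.01 and CG9172 at 1.03. Eggshell markers summed to 1401 FPKM after RU486 against 90.0 FPKM without, all 7 being higher. Muscle markers were lower in 12 of 13 cases, with sums of 1760.0 FPKM after RU486 against 2009 FPKM without, and gut enzyme markers summed to 471 FPKM against 73.8 FPKM. The part of these tissues in the result was not tested.

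The RU486 ratio of each gene was then set side by side in both genotypes. In larvae 22 of 30 genes had a lower log2 ratio in PGAM5 null than in wild type, against 41.4% of the 4538 genes at 10 FPKM or more in both libraries without RU486, and the median difference was -0.19 for the complex I genes and 0.13 for all genes. The larval count rests on the scaling: when the 10 most abundant genes were left out of it, 13 of 30 genes were lower in PGAM5 null, with a median difference of 0.02 for the complex I genes and 0.33 for all genes. The complex I genes lay 0.31 to 0.33 below the median gene under each of the 3 scalings and without scaling. A common scaling moves both medians almost alike, so the steady distance is no check on the result. In adults 28 of 29 genes had a lower log2 ratio in PGAM5 null, against 52.4% of 4244 genes, and the median difference was -0.19 for the complex I genes and -0.03 for all genes. With 1 library a condition the differences themselves could not be tested. In larvae wide gaps were those of CG3621, at 0.884 in PGAM5 null against 1.79 in wild type, and CG9172, at 1.11 against 1.82, whereas ND75 had 1.75 in both. Without CG15434, Pearson's r between both genotypes was 0.43 and Spearman's rho 0.38 over 29 genes in larvae. In adults r was 0.16 and rho 0.11 over 29 genes. The points share the 4 libraries of their stage, and genes are not independent replicates.

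**Figure D4:**
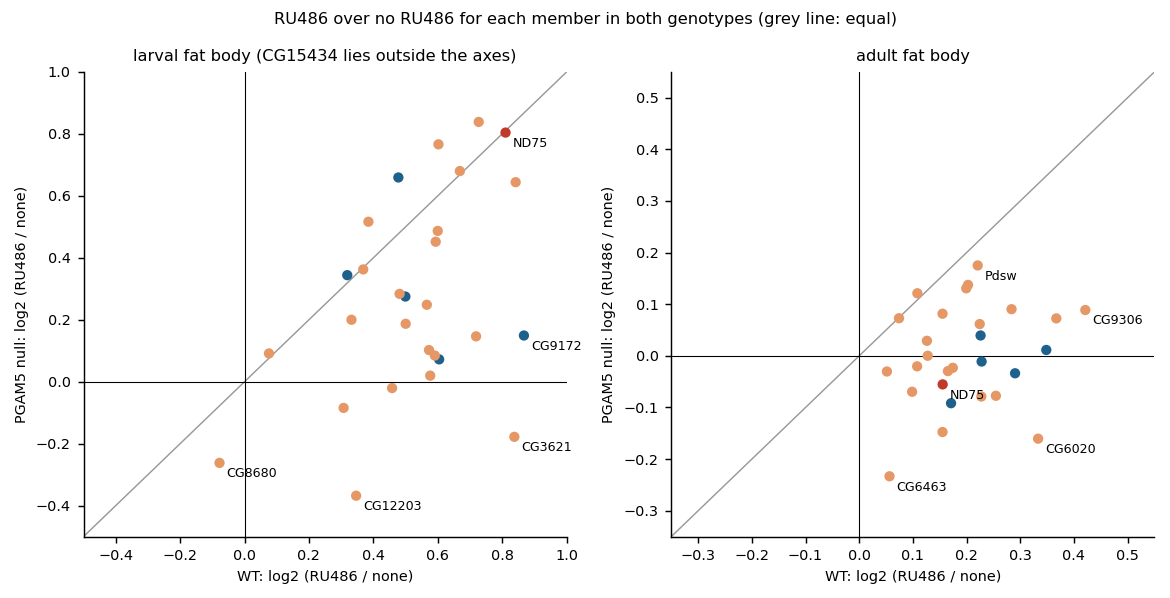
log2 ratio of RU486 over none in PGAM5 null (vertical) against wild type (horizontal) for the complex I genes described singly in larval (left) and adult (right) fat body; ND75 is red, other core genes blue, supernumerary genes orange, and the grey line marks equal ratios. In adults every gene shown other than mtacp1 lies below the line, and CG15434 (-0.56 in PGAM5 null, -2.85 in wild type) is outside the larval axes.

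Set directly against wild type, PGAM5 null libraries without RU486 differed little in these genes. In larvae 9 of 31 genes had a ratio above 1, against 35.3% of 5225 genes, and the median log2 ratio was -0.08, against -0.17 for all genes, turning to 0.00 on the other side of 0 once the libraries were scaled to their median gene. CG15434, at 4.81 FPKM in PGAM5 null against 10.1 FPKM in wild type (ratio 0.478, 0.176 to 1.13), was the only gene lower by 1.5-fold, where 14.9% of all genes were, and no gene was higher by 1.5-fold, where 5.47% were. CG3621 was the highest, at 85.1 FPKM in PGAM5 null against 60.8 FPKM in wild type (ratio 1.40, 1.15 to 1.71). CG5548 followed at 1.28, Pdsw at 1.23 and CG12203 at 1.17. Below 1 were CG9140 at 0.761 (0.652 to 0.887), CG3192 at 0.767 (0.587 to 0.987), ND42 at 0.769 (0.664 to 0.891) and ND75 at 0.774 (0.684 to 0.876). Among other core genes ND23 was at 0.904, CG12079 at 0.95 and CG9172 at 1.14. All 11 muscle markers measured were lower in PGAM5 null, with sums of 478 FPKM against 839.9 FPKM in wild type, and their part in these ratios was not tested.

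In adults without RU486, 19 of 29 genes had a ratio above 1, against 39.2% of 5015 genes, and the median log2 ratio was 0.04, against -0.10 for all genes. None was past 1.5-fold, where 5.78% of all genes were higher and 21.3% lower. l(3)neo18 was the highest, at 238 FPKM in PGAM5 null against 194 FPKM in wild type (ratio 1.23, 1.12 to 1.35), followed by CG6463 at 1.17, CG12079 at 1.15 and CG9306 at 1.13. CG7712 (ND-B14, NDUFA6) was the lowest, at 133 FPKM in PGAM5 null against 157 FPKM in wild type (ratio 0.847, 0.733 to 0.981), followed by CG18624 at 0.875, CG3446 at 0.883 and CG9172 at 0.925. After scaling to the upper quartile CG18624 was at 1.02 and CG3446 at 1.03, so the direction of both rests on the scaling. The core genes ran from 0.925 for CG9172 to 1.15 for CG12079. All 13 muscle markers measured were higher in PGAM5 null, with sums of 2009 FPKM against 943 FPKM in wild type, and all 12 gut markers were lower, with sums of 73.8 FPKM against 6969 FPKM.

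With RU486 the PGAM5 null libraries lay below wild type at both stages. In larvae 28 of 29 genes had a ratio below 1, against 55.1% of the 3643 genes at 10 FPKM or more. The median log2 ratio was -0.22, against 0.12 for the 10214 genes that reached 1 FPKM in either library. The distance from the median gene was -0.34, or -0.21 over genes at 10 FPKM or more. Lower by 1.5-fold were 3 of 29 genes, where 15.1% of all genes were, and none was higher by 1.5-fold, where 6.59% were. CG9350 (ND-B14.7, NDUFA11) was at 83.0 FPKM in PGAM5 null against 128 FPKM in wild type (ratio 0.648, 0.544 to 0.771). CG5703 was at 40.3 FPKM against 61.6 FPKM (ratio 0.654, 0.533 to 0.80), and CG7712 at 81.4 FPKM against 122 FPKM (ratio 0.665, 0.538 to 0.813). CG9306 at 0.681 came next. CG8680 alone was above 1, at 1.02 (0.843 to 1.24), and CG6463 at 0.947, ND23 at 0.920 and CG5548 at 0.919 had intervals that held 1. The other core genes ran from 0.691 for CG9172 to 0.863 for CG9140. All 12 muscle markers measured were higher in PGAM5 null, with sums of 1003 FPKM against 462 FPKM in wild type, and all 8 testis markers were higher, with sums of 341 FPKM against 82.3 FPKM. Gut enzyme markers summed to 878 FPKM in PGAM5 null against 8732 FPKM in wild type, and the part of other tissues in these ratios was not tested. This comparison shares its wild-type library with that of RU486 over none in wild-type larvae.

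In adults that had received RU486, 25 of 29 genes had a ratio below 1 in PGAM5 null over wild type. The share was 58.8% of the 4613 genes at 10 FPKM or more. The median log2 ratio was -0.15 (-0.07 after scaling to the upper quartile), against 0.01 for the 8908 genes that reached 1 FPKM in either library. The distance from the median gene was -0.16, or -0.08 over genes at 10 FPKM or more. None of the 29 genes was past 1.5-fold, where 4.88% of all genes were higher and 13.5% lower. CG7712 was again the lowest, at 131 FPKM in PGAM5 null against 177 FPKM in wild type (ratio 0.739, 0.638 to 0.851), and CG18624 again the second lowest, at 237 FPKM against 309.9 FPKM (ratio 0.765, 0.679 to 0.860). CG6020 at 0.783 and CG9172 at 0.813 followed. l(3)neo18 was again the highest, at 1.09 (1.0 to 1.2), with CG12203 at 1.05, CG3192 at 1.03 and CG3621 at 1.01. All 7 core genes were below 1, from 0.813 for CG9172 to 0.946 for ND75. Muscle markers were higher in PGAM5 null here too, 13 of 13, with sums of 1760.0 FPKM against 996 FPKM. Eggshell markers summed to 1401 FPKM in PGAM5 null against 80.1 FPKM in wild type, and gut enzyme markers to 471 FPKM against 54.4 FPKM. Adult fat body markers summed to 116515 FPKM against 65571.8 FPKM, and larval fat body markers to 16.3 FPKM against 97.6 FPKM. The part of these tissues in the ratios was not tested.

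The medians of the other complexes of the respiratory chain lay on the same side of 0 as complex I with ND75 RNAi, with dOTC and in larvae with RU486. Complex II was close to level with ND75 RNAi, with 2 of its 4 genes above 0 and 2 below. With ND75 RNAi the median log2 ratio was 0.03 for complex II (4 genes), 0.29 for complex III (8 genes), 0.20 for complex IV (8 genes), 0.35 for ATP synthase (12 genes) and 0.41 for TCA cycle enzymes (11 genes), and 0.21 for complex I. Assembly factors of complex I, which build the complex but are no part of it, were at -0.37 (7 genes) and mitochondrial ribosomal proteins at -0.13 (72 genes), against -0.17 for all genes. With dOTC the medians were -0.23 for complex II, -0.31 for complex III, -0.17 for complex IV, -0.16 for ATP synthase and -0.34 for TCA cycle enzymes, against -0.07 for complex I. The median of complex I was thus nearest to 0 of the 5 complexes with dOTC, a difference that was not tested.

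In larval wild type with RU486 over none the medians were 0.47 for complex II, 0.79 for complex III (9 genes), 0.74 for complex IV, 0.91 for ATP synthase and 0.50 for complex I, with all 12 ATP synthase genes past 1.5-fold. In larval PGAM5 null they were 0.24 for complex II, 0.41 for complex III, 0.52 for complex IV, 0.66 for ATP synthase and 0.19 for complex I. Assembly factors were at -0.45 in wild type and -0.28 in PGAM5 null, and mitochondrial ribosomal proteins at 0.00 and 0.01. The assembly factors thus lay near the medians of all genes, -0.50 in wild type and -0.26 in PGAM5 null. In wild type the assembly factors were at 0.08 after scaling to the upper quartile. That scaling takes a shift of -0.56 log2 units out of every gene, so the median of all genes moves with them. In adult wild type the medians were -0.05 for complex II, 0.09 for complex III, 0.15 for complex IV, 0.26 for ATP synthase and 0.17 for complex I, and in adult PGAM5 null all 5 lay between -0.05 and 0.07.

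**Figure D5:**
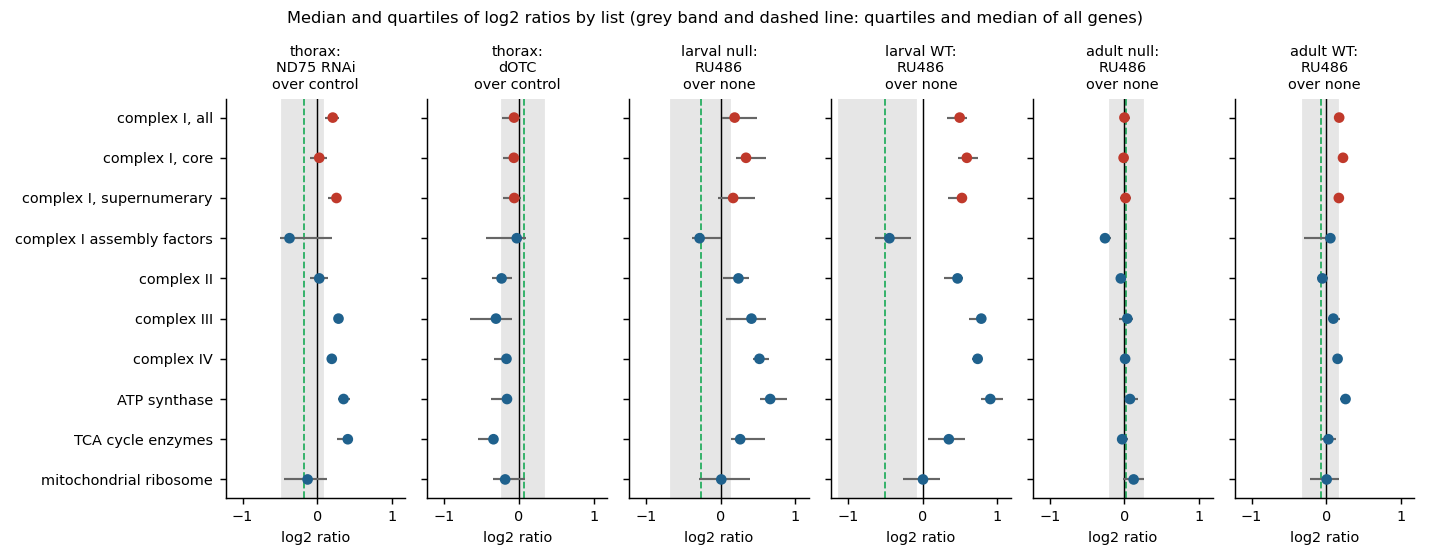
Median (points) and quartiles (bars) of the log2 ratio, with 1 FPKM added, for complex I genes (red) and other mitochondrial lists (blue) in 6 comparisons; the grey band and the dashed line give quartiles and median of all genes. Complex I lies right of the dashed line with ND75 RNAi (0.21 against -0.17), in larvae with RU486 (0.19 against -0.26 in PGAM5 null, 0.50 against -0.50 in wild type) and in adult wild type (0.17 against -0.07), and left of it with dOTC (-0.07 against 0.06).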

How the data were processed

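mRNA was sequenced by the authors on a MiSeq from TruSeq libraries, and FPKM was computed by the authors with Bowtie, TopHat and Cufflinks (versions not given in the sources used here) against release 5.2 of the fly genome. The deposited tables hold FPKM of 15603 genes in 11 libraries and no counts. The values were used as deposited. A log2 ratio carries 1 FPKM on both values and understates low genes. Medians cover genes that reached 1 FPKM in at least 1 of both libraries, and counts cover genes at 10 FPKM or more in the library under the ratio. Thresholds were 1.5-fold, and 3-fold up and 2-fold down after the study.

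Depth was recovered from the steps of low FPKM values, with 74.2% to 82.3% of them whole to a tolerance of 0.1 fragments, and with transcript lengths for 15240 genes from a release 6 annotation. Ratios carry the exact conditional binomial (Clopper-Pearson) interval at 95%. On simulated data for the ND75 RNAi and control depths (1298 genes) 95.6% of intervals held the true ratio.

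The complex I genes and all lists were chosen with earlier results of these data known. Named are ND75, the core genes, the paralogs CG2014 and CG11423 and in each comparison the 4 genes of highest and the 4 of lowest ratio, with the 4 most and least abundant genes of a tissue. CG6914, CG15434, CG6485 and CG8102 were described after their values were seen. 1 gene is counted in the totals and medians but is not reported here singly. Symbols in parentheses are current fly names and mammalian orthologs. Markers came from lists for muscle, gut, eggshell, glue, fat body, testis and hemocytes. No sequences are shown, since no genome of the build was used here. Alternatives varied the pseudocount, the filter, the scaling and the members. Ratios and intervals were computed in Python 3.11.15 with scipy 1.17.1, pandas 2.3.3 and numpy 2.4.6, and plots drawn with matplotlib 3.10.9.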

Additional observations from a re-analysis of the deposited data

Results flagged for a closer look

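Listed here are the genes whose counting intervals lay wholly above 1 in one genotype or stage and wholly below 1 in the other. Other genes had ratios on opposite sides of 1 with an interval that held 1. With 1 library a condition none of these differences was tested. For RU486 over none in larvae, CG12203 had a ratio of 0.775 in PGAM5 null against 1.27 in wild type. The median ratio of all genes at 10 FPKM or more was 0.782 in that null pair and 0.707 in the wild-type pair. CG12203 thus lay near the median gene in the null, and the intervals are those of unscaled values. For RU486 over none in adults, CG6020 had a ratio of 0.895 in PGAM5 null against 1.26 in wild type.

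The others are ratios of PGAM5 null over wild type that changed direction with the stage. Without RU486 the median log2 ratio of the complex I genes, which has no counting interval, was -0.0822 in larvae and 0.0369 in adults. The medians of all genes were -0.17 and -0.10. The larval value was 0.00485 after scaling to the median gene and 0.00152 after scaling to the upper quartile, so its direction rests on the scaling. In the same pairs ND75 had a ratio of 0.774 in larvae and 1.09 in adults, CG6020 had 0.863 in larvae and 1.10 in adults, and l(3)neo18 had 0.804 in larvae and 1.23 in adults. With RU486 l(3)neo18 had a ratio of 0.869 in larvae and 1.09 in adults. The intervals do not cover differences between animals or dissections.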

How the results depend on the processing

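No paired analysis was possible because each condition is 1 library. Dropping ND75, the paralogs CG2014 and CG11423, or (a setting added after seeing the data) CG2014, CG11423, CG6914 and CG15434 moved no median beyond its limits. Of the counts at 1.5-fold (recomputed after seeing the data), those of lower genes in both thorax comparisons were 0 without ND75, and without the 4 genes those of higher genes in both thorax comparisons and of lower genes in larval wild type and in larval PGAM5 null over wild type without RU486 were 0. Values below are medians of log2 ratios.

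Scaling libraries to the median gene gave 0.34 for ND75 RNAi, 0.70 for RU486 in larval wild type, 0.39 for RU486 in larval PGAM5 null, and 0.00485 (reversed) for larval PGAM5 null over wild type without RU486. It left 3 genes lower by 1.5-fold with dOTC, 22 higher in larval wild type, and 10 higher in larval PGAM5 null. Scaling to the upper quartile gave 0.35 for ND75 RNAi, 1.05 and 0.42 for RU486 in larval wild type and PGAM5 null, 0.37 for RU486 in adult wild type, 0.25 for adult PGAM5 null over wild type without RU486, 0.00152 for the larval one (reversed), and -0.46 in larvae and -0.0695 in adults with RU486. It put CG3446 at 1.03 and CG18624 at 1.02 for adult PGAM5 null over wild type without RU486. Leaving out the 10 most abundant genes gave 0.46 for RU486 in larval PGAM5 null, -0.00629 in adult PGAM5 null (reversed), and -0.14 for larval PGAM5 null over wild type with RU486.

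The distance from the median gene depended on the low genes. With no filter it was 0.18 for ND75 RNAi, -0.0517 for dOTC, 0.75, 0.25 and 0.17 for RU486 in larval wild type, larval PGAM5 null and adult wild type, -0.0267 (reversed) in larvae and 0.0247 in adults for PGAM5 null over wild type without RU486, and -0.22 in larvae with RU486. With a pseudocount of 10 it was 0.29 for ND75 RNAi, 0.66 and 0.28 for RU486 in larval wild type and PGAM5 null, and -0.26 for larval PGAM5 null over wild type with RU486. A pseudocount of 0.1 gave 1.09 in larval wild type. Over genes at 10 FPKM or more in the library under the ratio it was 0.0563 (reversed) for RU486 in adult PGAM5 null, and -0.21 in larvae and -0.0787 in adults for PGAM5 null over wild type with RU486. A minimum of 1 FPKM there gave 4 genes lower by 1.5-fold in larval wild type, 1 lower in larval PGAM5 null and 3 higher for larval PGAM5 null over wild type with RU486. For the difference of the RU486 log2 ratio between PGAM5 null and wild type (scalings also added after seeing the data), the upper quartile gave -0.51 in larvae and -0.32 in adults, and leaving out the 10 most abundant genes gave 0.0162 in larvae (reversed). The causes were not tested beyond the construction of each setting. Depth limits genes under 10 FPKM.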

Other observations

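Markers of hemocytes, the blood cells of the fly, summed to 80.3 FPKM with ND75 RNAi and 119 FPKM with dOTC, against 68.0 FPKM in the control thorax. In adult fat body they summed to 36.3 FPKM in PGAM5 null with RU486 against 28.3 FPKM without, and to 19.6 FPKM in wild type with RU486 against 23.2 FPKM without. Adult fat body markers summed to 116515 FPKM in PGAM5 null with RU486 against 77729.7 FPKM without, and to 65571.8 FPKM in wild type with RU486 against 63981.5 FPKM without. Carriers and channels of mitochondria such as sesB, the ATP/ADP carrier, and porin had a median log2 ratio of 0.97 in larval wild type and 1.02 in larval PGAM5 null for RU486 over none, in both cases with 6 of 6 genes above 0.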
